A study of Mus musculus with 10 samples.

Results

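The genes described here encode 45 proteins of the complement and coagulation systems, including the enzymes that dissolve clots and the plasma and cell-surface inhibitors of these cascades. The rule that chose them used gene symbols and no measured values, although earlier results of these data were known. Each of the 45 symbols was found as 1 row among the 24016 RefSeq transcripts of the expression table. RNA-Seq was performed on liver from 10 male C57BL/6 mice aged 8 to 12 weeks, 6 days after injection into the tail vein. The 5 AdVEGF mice received a serotype 5 adenovirus that carries VEGF-A165 under the CMV promoter, and the 5 AdCMV mice received an adenovirus with that promoter and no transgene. Both groups therefore carried adenovirus, no uninjected mouse was part of the comparison, and the livers were perfused with PBS before whole tissue was frozen. The comparison asks which genes of the liver differ after VEGF gene transfer.

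Expression is given as RPKM, the number of reads divided by the length of the transcript and by the depth of the library. Recovered library totals ranged from 5758960 to 13494100 reads in the AdCMV group and from 5596560 to 8133990 in the AdVEGF group, which puts 3 reads on 1 kb of transcript at 0.222 to 0.521 RPKM for AdCMV libraries and at 0.369 to 0.536 RPKM for AdVEGF libraries. The major urinary protein genes took 18.0% to 50.5% of the reads in the AdCMV group and 7.84% to 28.6% in the AdVEGF group, and the median log2 fold change of all transcripts tested was 0.38. Fold changes are therefore given on the deposited scale and again after median-ratio scaling between the libraries, which brought that median to -0.011. The mouse Vegfa row ranged from 13.8 to 23.2 RPKM among AdCMV mice and from 28.3 to 39.4 RPKM among AdVEGF mice, and whether reads of the delivered VEGF-A165 entered this row was not given in the sources used here. Hepatocyte markers were abundant in all 10 livers and summed to between 15210 and 23160 RPKM in AdCMV mice and between 33200 and 40780 RPKM in AdVEGF mice. The most abundant markers weigh most in this sum. The median log2 fold change of the 8 markers was 0.71 on the deposited scale and 0.31 after median-ratio scaling. AdVEGF replicate 4 stood apart from the other 4 AdVEGF mice in many of the genes described, and the calls are given with and without this mouse.

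Complement is a set of plasma proteins that mark microbes and damaged cells. Its classical and lectin routes cleave C4 and C2, its alternative route uses factor B and properdin, all routes meet at C3, and the terminal components from C5 to C9 assemble into a pore. Coagulation is a chain of proteases that ends with thrombin cleaving fibrinogen into fibrin, which plasmin later dissolves. Hepatocytes make most of these plasma proteins, whereas endothelial cells make factor VIII, von Willebrand factor and several of the molecules that keep vessel walls free of clots. By this general knowledge 36 of the 45 genes were classed as made mainly by hepatocytes, 6 as made mainly by endothelial cells and 3 (Cfp, F3 and Plau) as made by other or mixed cells.

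Promoter windows from 250 bases before to 50 bases after the start were found in RefSeq (GRCm38.p6) for 32 of the 45 genes. The stretches before the gene are shown for the neighbouring fibrinogen genes, which were high together in 1 mouse, for the C8a and C8b genes, which lie next to each other, and for 2 of the endothelial-made genes. Capitals mark matches to the STAT-type letters TTCNNNGAA, the C/EBP-type letters TTGCNNAA and the HNF1-type letters GTTAAT on either strand, and bases inside the gene bounds are not shown. The F8 window lies inside the gene and is not shown.
Fga, chr3:83025903-83026152, plus strand: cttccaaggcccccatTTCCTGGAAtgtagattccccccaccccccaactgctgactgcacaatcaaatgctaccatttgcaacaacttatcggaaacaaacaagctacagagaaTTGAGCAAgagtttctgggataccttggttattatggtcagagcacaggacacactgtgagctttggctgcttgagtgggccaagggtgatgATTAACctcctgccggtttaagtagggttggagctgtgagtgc
Fgb, chr3:83049864-83050113, minus strand: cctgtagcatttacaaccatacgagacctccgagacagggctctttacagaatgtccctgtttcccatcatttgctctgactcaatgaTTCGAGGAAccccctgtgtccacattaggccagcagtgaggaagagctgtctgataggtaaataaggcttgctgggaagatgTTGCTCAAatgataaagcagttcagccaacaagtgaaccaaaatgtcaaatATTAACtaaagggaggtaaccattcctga
Fgg, chr3:83007474-83007723, plus strand: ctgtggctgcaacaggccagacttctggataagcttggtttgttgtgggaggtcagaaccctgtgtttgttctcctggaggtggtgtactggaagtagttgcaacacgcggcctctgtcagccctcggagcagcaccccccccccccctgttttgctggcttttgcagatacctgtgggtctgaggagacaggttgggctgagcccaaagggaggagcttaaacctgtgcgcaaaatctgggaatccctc
C8a, chr4:104876488-104876648, minus strand: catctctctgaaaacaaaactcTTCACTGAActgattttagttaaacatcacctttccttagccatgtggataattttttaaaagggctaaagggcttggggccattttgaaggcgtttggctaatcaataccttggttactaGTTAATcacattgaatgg
C8b, chr4:104766067-104766316, plus strand: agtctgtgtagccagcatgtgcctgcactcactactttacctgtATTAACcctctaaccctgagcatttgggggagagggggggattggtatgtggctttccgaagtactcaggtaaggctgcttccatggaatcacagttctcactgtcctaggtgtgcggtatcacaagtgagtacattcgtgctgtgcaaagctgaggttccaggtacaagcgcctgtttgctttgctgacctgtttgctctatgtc
Procr, chr2:155750967-155751124, plus strand: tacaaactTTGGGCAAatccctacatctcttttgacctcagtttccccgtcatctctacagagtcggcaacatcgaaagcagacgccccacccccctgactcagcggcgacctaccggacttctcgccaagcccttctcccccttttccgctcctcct
Tfpi, chr2:84476776-84477009, minus strand: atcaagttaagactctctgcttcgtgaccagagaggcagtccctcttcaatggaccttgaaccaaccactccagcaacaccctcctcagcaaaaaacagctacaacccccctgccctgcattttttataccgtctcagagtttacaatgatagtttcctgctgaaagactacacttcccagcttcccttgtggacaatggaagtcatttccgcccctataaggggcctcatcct

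In the fibrinogen genes, Fga and Fgb each held 1 match to all 3 sets of letters in this window and Fgg held none. Over the 27 hepatocyte-class genes with a window, the C/EBP-type letters were present in 9 (33.3%), the HNF1-type letters in 7 (25.9%) and the STAT-type letters in 6 (22.2%). Among the 17083 genes of the table with a window, the shares were 11.5%, 7.2% and 9.2%. The KLF-type letters CCACACCC and the ETS-type letters ACAGGAAG and CCGGAAG, which were also searched on both strands, were in none of the 27 windows and in 4.3%, 3.7% and 12.8% of all windows. Of the 3 endothelial-class genes with a window, which were F8, Procr and Tfpi, only Procr had a match to any of the 6 sets, to the C/EBP-type letters. These matches are descriptions of letters and were not tested.

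All 45 genes passed the low-value threshold, which asked that at least 1 group average more than 0.5 RPKM, and 44 passed it in both groups. Vwf passed it only in the AdVEGF group. On the deposited scale, AdVEGF livers had 7 genes higher and 0 lower than AdCMV livers, where a call needs both an adjusted p below 0.05 in limma and a change of at least 1 in either direction on the log2 scale. The 7 were Plat, Tfpi, Procr, Masp1, C8a, Kng1 and Plau. They made up 15.56% of the 45 genes, close to the 13.0% of all transcripts that were called higher, and 1.54% of all transcripts were called lower. At an adjusted p alone, 14 genes were on the higher side and 2 on the lower, beside 21.9% and 2.23% of all transcripts. At an unadjusted limma p under 0.05, 19 genes were on the higher side and 2 on the lower, beside 34.9% and 3.69%. Median-ratio scaling changed these counts to 5 higher and 6 lower at an adjusted p alone, and to 8 and 14 at an unadjusted p. The shares of all transcripts at these p after scaling were not computed. On the deposited scale, voom on the recovered reads also called 7 genes higher and 0 lower, beside 14.3% and 1.54% of all transcripts. After median-ratio scaling, only Plat and Tfpi were called higher and C2 and F8 were called lower, which is 4.44% of the 45 genes in each direction beside 7.62% and 3.21% of all transcripts. The AdVEGF mice lay entirely above the AdCMV mice for 11 genes and entirely below for 1 on the deposited scale, against 14.3% and 1.29% of all transcripts, and for 6 and 3 genes after scaling, against 10.5% and 7.26%. The median log2 fold change of the 45 genes was 0.35 on the deposited scale and -0.048 after scaling. For the 36 hepatocyte-class genes it was 0.28 and -0.13, with values from -0.61 to 1.32 on the deposited scale. In sum, these transcripts took 1.27% to 1.85% of the reads in the AdCMV group and 1.74% to 2.83% in the AdVEGF group.

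**Figure D1:**
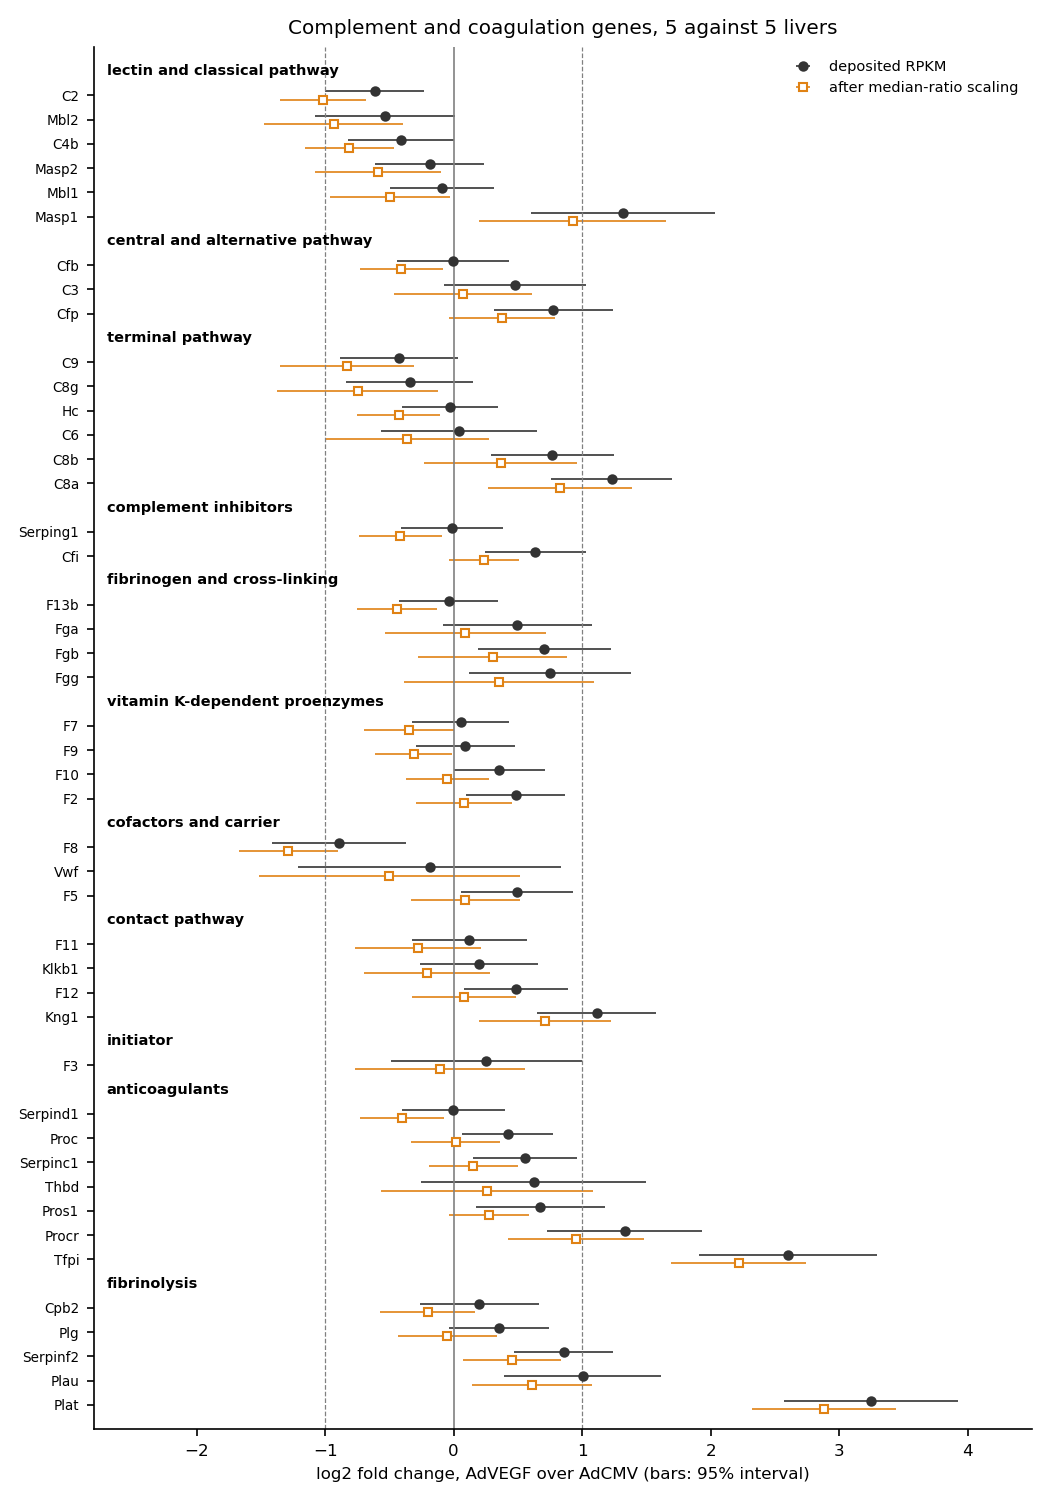
Log2 fold change (AdVEGF over AdCMV) of each of the 45 genes by role, with filled circles for the deposited RPKM, open squares for the values after median-ratio scaling, bars for 95% intervals and dashed lines at the threshold of 1. Plat (3.25) and Tfpi (2.60) lie far to the right of all others under both scales, and F8 (-0.89 and -1.29 after scaling) lies farthest to the left.

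Among the lectin and classical pathway genes, Masp1 was called higher, C2 was called lower after scaling only, and the other 4 were not called on either scale. Mbl2, a mannose-binding lectin that recognises sugars on microbes, was the most abundant of the role. It had 291, 287, 375, 224 and 255 RPKM in AdCMV replicates 1 to 5 and 198, 178, 337, 112 and 214 RPKM in AdVEGF replicates 1 to 5. The groups overlapped, as AdVEGF replicate 3 lay above 4 of the AdCMV mice, and the log2 fold change was -0.53 ± 0.26 (SE, adjusted p = 0.138) on the deposited scale and -0.93 ± 0.25 (adjusted p = 0.0170) after scaling, short of the fold threshold. Without AdVEGF replicate 4, the lowest of its group, these were -0.33 and -0.72. The related lectin Mbl1 had 123 ± 11.9 RPKM and 117 ± 23.2 RPKM (SD, n = 5 each) in the AdCMV and AdVEGF groups. Its log2 fold change was -0.092 (adjusted p = 0.740), and -0.49 (adjusted p = 0.117) after scaling.

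C2, the protease component that forms the C3 convertase with C4, had 43.6, 45.9, 44.3, 32.3 and 41.0 RPKM in the AdCMV mice and 26.5, 26.3, 24.2, 34.1 and 24.3 RPKM in the AdVEGF mice. The groups met only where AdVEGF replicate 4 exceeded AdCMV replicate 4, and they did not overlap after scaling. Its log2 fold change was -0.61 ± 0.18 (SE, adjusted p = 0.0222) on the deposited scale, and -1.01 ± 0.15 (adjusted p = 0.000454) after scaling. C4b, which encodes the component C4, had 199 ± 36.0 RPKM in the AdCMV group and 149 ± 18.7 RPKM in the AdVEGF group (SD, n = 5 each), with log2 fold changes of -0.41 (adjusted p = 0.131) and, after scaling, -0.81 (adjusted p = 0.00283), where the groups did not overlap. Reads of C4b and its near-identical copy C4a may have been shared, and C4a had log2 fold changes of -0.42 (adjusted p = 0.166) and -0.82 (adjusted p = 0.00319). Masp2, the gene of the protease that cleaves C4 and C2 on the lectin route, is represented by a short record of 737 bases. This record had log2 fold changes of -0.19 and -0.59 with adjusted p of 0.502 and 0.0809. Whether its values stand for the transcript of the whole protease was not tested.

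Masp1, a further protease of the lectin route, was low in this tissue. It had 3.18, 1.65, 3.81, 2.60 and 9.02 RPKM in the AdCMV mice and 9.77, 7.68, 8.63, 6.25 and 12.4 RPKM in the AdVEGF mice. The AdVEGF mice lay above 4 of the 5 AdCMV mice, while AdCMV replicate 5 lay among them. The log2 fold change was 1.32 ± 0.34 (SE, adjusted p = 0.00992), and 0.93 ± 0.33 (adjusted p = 0.0641) after scaling.

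None of the central and alternative pathway genes was called. C3, the component on which all routes converge, had 466, 430, 667, 564 and 883 RPKM in the AdCMV mice and 643, 662, 812, 1354 and 742 RPKM in the AdVEGF mice. AdVEGF replicate 4 was the highest, and without it the log2 fold change moved from 0.48 (adjusted p = 0.186) to 0.29 (adjusted p = 0.385). Cfb, the protease of the alternative route, had 273 ± 51.9 RPKM and 271 ± 51.2 RPKM (SD, n = 5 each), with a log2 fold change of -0.0044 (adjusted p = 0.989), and -0.41 (adjusted p = 0.0675) after scaling. The Cfb and C2 genes lie 88 bases apart in the table's coordinates (chromosome 17, 34993319 to 34999459 and 34999547 to 35019045) on the same strand. Cfp, which encodes properdin, the stabiliser of the alternative convertase that leukocytes make, had 11.8 ± 3.98 RPKM and 19.8 ± 3.28 RPKM, with a log2 fold change of 0.77 (adjusted p = 0.0171), and 0.37 (adjusted p = 0.180) after scaling. Of the 8 Kupffer cell markers 3 were called higher on the deposited scale and 2 after scaling, beside 13.0% and 7.62% of all transcripts. The sum of the 8 markers was 57.8 to 143 RPKM in AdCMV mice and 132 to 199 RPKM in AdVEGF mice. The part of Kupffer cells in the Cfp values was not tested.

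The 6 terminal pathway genes, Hc (which encodes C5), C6, C8a, C8b, C8g and C9, spread from -0.42 to 1.23 in log2 fold change on the deposited scale and from -0.83 to 0.83 after scaling. C8a, the pore-inserting alpha chain of C8, had 63.1, 53.2, 40.0, 58.9 and 97.9 RPKM in the AdCMV mice and 137, 169, 145, 125 and 132 RPKM in the AdVEGF mice. Every AdVEGF mouse lay above every AdCMV mouse on both scales. The log2 fold change was 1.23 ± 0.22 (SE, adjusted p = 0.000638) on the deposited scale and 0.83 ± 0.26 (adjusted p = 0.0355) after scaling, which is past the adjusted p and below the fold threshold. C8g, the gamma chain that is bound to the alpha chain, was the most abundant of this role with 198, 200, 139, 209 and 178 RPKM in the AdCMV mice and 202, 157, 177, 86.7 and 128 RPKM in the AdVEGF mice. Its groups overlapped, with log2 fold changes of -0.34 (adjusted p = 0.282) and -0.75 (adjusted p = 0.0817), or -0.16 and -0.55 without AdVEGF replicate 4. The beta chain C8b lay between the others with 0.77 (adjusted p = 0.0207) and 0.37 (adjusted p = 0.371). The C8b and C8a genes face each other on chromosome 4 with 11132 bases between their ends.

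C9, which forms the ring of the pore, had 132 ± 26.2 RPKM in the AdCMV group and 99.3 ± 24.2 RPKM in the AdVEGF group (SD, n = 5 each). Its log2 fold change was -0.42 (adjusted p = 0.162), and -0.83 (adjusted p = 0.0257) after scaling, or -0.27 and -0.66 (adjusted p = 0.0469) without AdVEGF replicate 4. Hc had 127 ± 16.5 RPKM and 124 ± 9.64 RPKM, with a log2 fold change of -0.025 (adjusted p = 0.925), and -0.43 (adjusted p = 0.0557) after scaling. C6 had 41.4 to 71.3 RPKM in the AdCMV mice, and 64.4 to 74.3 RPKM in 4 AdVEGF mice against 24.2 RPKM in AdVEGF replicate 4. Of the complement inhibitors, Serping1, the C1 inhibitor, had 255, 256, 283, 212 and 272 RPKM in the AdCMV mice and 233, 279, 255, 294 and 211 RPKM in the AdVEGF mice, with a log2 fold change of -0.011 (adjusted p = 0.970), and -0.41 (adjusted p = 0.0635) after scaling. Cfi, the protease that inactivates C3b and C4b, had 118 ± 18.4 RPKM and 182 ± 19.3 RPKM, and its groups did not overlap on the deposited scale. Its log2 fold change was 0.64 (adjusted p = 0.0208), and 0.23 (adjusted p = 0.206) after scaling.

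**Figure D2:**
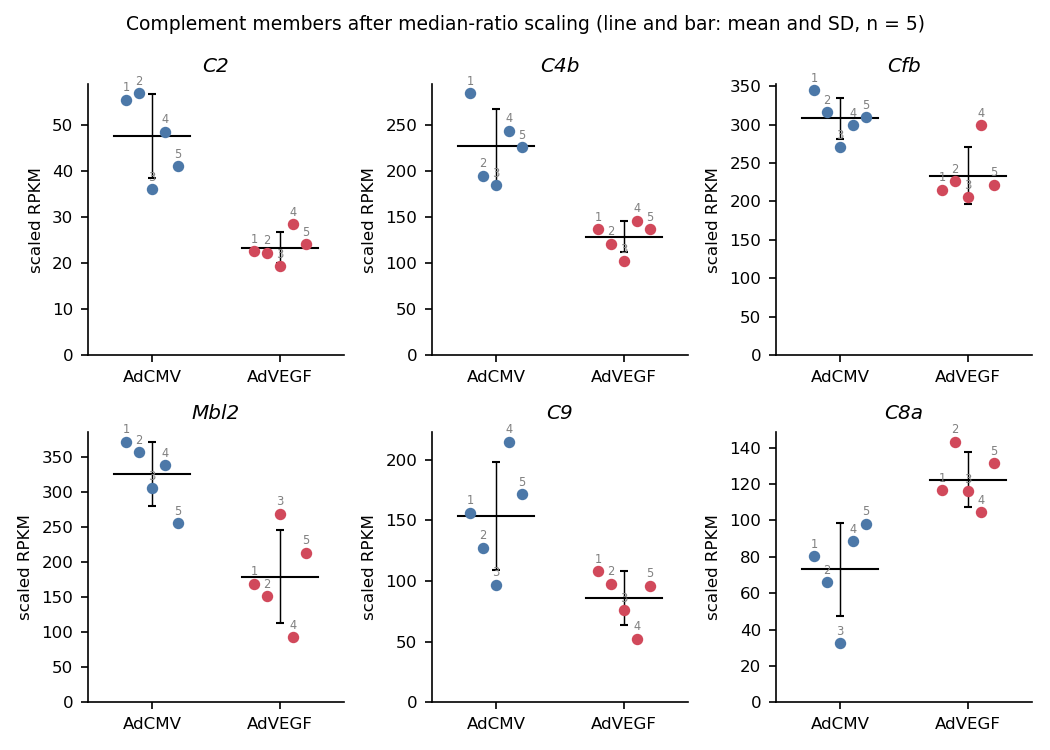
RPKM after median-ratio scaling of 6 complement genes in each mouse, with numbers for the replicates and lines and bars for the mean and SD of 5 mice. C2 and C4b are lower in every AdVEGF mouse than in every AdCMV mouse, C8a is higher in every one, and the groups overlap for Cfb, Mbl2 and C9.

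Fgb and Fgg, which encode chains of fibrinogen, had the highest mean RPKM of the 45 genes in both groups, and none of the fibrinogen and cross-linking genes was called. Fgb, the beta chain, had 908, 872, 839, 1038 and 1167 RPKM in the AdCMV mice and 1436, 1512, 1460, 2587 and 1132 RPKM in the AdVEGF mice. AdVEGF replicate 4 was the highest and AdVEGF replicate 5 lay among the AdCMV mice. The log2 fold change was 0.71 ± 0.24 (SE, adjusted p = 0.0450), which fell to 0.52 (adjusted p = 0.0916) without AdVEGF replicate 4 and was 0.30 (adjusted p = 0.453) after scaling. Fgg, the gamma chain, had 913 to 1237 RPKM in 4 AdVEGF mice and 3138 RPKM in AdVEGF replicate 4, against 616 to 932 RPKM in the AdCMV mice, and Fga, the alpha chain, had 186 to 560 RPKM and 301 to 597 RPKM. The 3 genes stand together on chromosome 3, with 11104 bases between Fgg and Fga and 8688 between Fga and Fgb. F13b, the carrier subunit of the fibrin cross-linking factor XIII, had 52.2 ± 6.05 RPKM and 51.0 ± 7.78 RPKM (SD, n = 5 each). Its log2 fold change was -0.038 (adjusted p = 0.892), and -0.44 (adjusted p = 0.0428) after scaling.

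None of the 4 vitamin K-dependent proenzymes was called, and their log2 fold changes lay between 0.055 and 0.48 on the deposited scale and between -0.35 and 0.081 after scaling. F2, which encodes prothrombin, had 260, 279, 247, 221 and 271 RPKM in the AdCMV mice and 380, 339, 378, 390 and 303 RPKM in the AdVEGF mice. The AdVEGF mice were all above the AdCMV mice on the deposited scale, with a log2 fold change of 0.48 ± 0.18 (SE, adjusted p = 0.0639), and the groups overlapped after scaling with 0.081 (adjusted p = 0.780). F10, the enzyme that activates prothrombin, had 92.3 ± 5.15 RPKM and 118 ± 8.74 RPKM (SD, n = 5 each), while F7, the partner of tissue factor, had 24.3 ± 3.39 RPKM and 25.2 ± 3.16 RPKM and F9 had 32.8 ± 4.21 RPKM and 35.0 ± 5.26 RPKM. F7 and F10 lie 1499 bases apart on chromosome 8. Log2 fold changes were 0.35 (adjusted p = 0.130) for F10, 0.055 (adjusted p = 0.835) for F7 and 0.090 (adjusted p = 0.731) for F9.

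The cofactors differed from each other. F5, the cofactor of factor Xa, had 32.6, 28.9, 38.1, 36.9 and 57.8 RPKM in the AdCMV mice and 55.0, 56.6, 55.4, 41.9 and 58.9 RPKM in the AdVEGF mice. AdCMV replicate 5 lay among the AdVEGF mice, and the log2 fold change was 0.49 ± 0.21 (SE, adjusted p = 0.0889), and 0.093 (adjusted p = 0.777) after scaling. F8, the cofactor of factor IXa that sinusoidal endothelial cells of the liver make, had 4.81, 5.13, 6.76, 4.54 and 7.21 RPKM in the AdCMV mice and 3.38, 2.35, 3.37, 4.45 and 1.90 RPKM in the AdVEGF mice. Every AdVEGF mouse lay below every AdCMV mouse, on both scales, although AdVEGF replicate 4 and AdCMV replicate 4 nearly met on the deposited scale. The log2 fold change was -0.89 ± 0.25 (SE, adjusted p = 0.0150), -1.04 (adjusted p = 0.00734) without AdVEGF replicate 4, and -1.29 ± 0.18 (adjusted p = 0.000211) after scaling. Each F8 value rested on 93 to 503 reads. Vwf, the carrier that protects factor VIII in plasma and binds platelets, had 0.330, 0.295, 0.434, 0.483 and 0.831 RPKM in the AdCMV mice and 0.324, 0.337, 0.163, 1.55 and 0.220 RPKM in the AdVEGF mice, from 8 to 111 reads. Without AdVEGF replicate 4 its mean lay under the 0.5 RPKM threshold in both groups, and with it the log2 fold change was -0.19 ± 0.48 (SE, adjusted p = 0.794), and -0.50 (adjusted p = 0.480) after scaling.

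Of the contact pathway genes, Kng1 was called. Kng1 encodes a kininogen, the precursor of bradykinin, and had 269, 216, 222, 293 and 377 RPKM in the AdCMV mice and 538, 571, 570, 787 and 489 RPKM in the AdVEGF mice. The groups did not overlap on either scale, with a log2 fold change of 1.11 ± 0.22 (SE, adjusted p = 0.00129), and 0.71 ± 0.24 (adjusted p = 0.0474) after scaling. Without AdVEGF replicate 4 the scaled value was 0.61 (adjusted p = 0.0881). Its near-identical neighbour Kng2 had 112 ± 22.6 RPKM and 229 ± 66.3 RPKM (SD, n = 5 each), and reads of the 2 genes may not be separable. F12, F11 and Klkb1, the zymogens of this pathway, had log2 fold changes of 0.48, 0.12 and 0.20 with adjusted p of 0.0762, 0.685 and 0.519, and of 0.082, -0.28 and -0.21 after scaling. For Klkb1, leaving out AdVEGF replicate 4 gave 0.39 (adjusted p = 0.143) on the deposited scale. F11 and Klkb1 are neighbours on chromosome 8 with 7422 bases between them. F3, which encodes tissue factor, the initiator of clotting on cells outside the vessel lumen, had 1.18, 1.23, 1.43, 0.397 and 0.558 RPKM in the AdCMV mice and 1.62, 0.865, 1.15, 0.921 and 0.875 RPKM in the AdVEGF mice, with 6 to 31 reads per mouse. The groups overlapped and the log2 fold change was 0.25 ± 0.35 (SE, adjusted p = 0.605), and -0.10 after scaling, so that no difference was detectable at this depth.

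Among the 7 anticoagulant genes, Tfpi and Procr were called higher and 4 passed the adjusted p on the deposited scale. Beside these, 13.0% of all transcripts were called higher and 21.9% were higher at an adjusted p alone. After scaling 1 of the 7, Tfpi, was called and 2 passed the adjusted p. Serpinc1, the plasma inhibitor antithrombin, was the most abundant, with 417, 433, 463, 329 and 428 RPKM in the AdCMV mice and 657, 619, 647, 576 and 534 RPKM in the AdVEGF mice. The groups did not overlap on the deposited scale, and the log2 fold change was 0.56 ± 0.19 (SE, adjusted p = 0.0441), and 0.15 (adjusted p = 0.535) after scaling. Tfpi, the inhibitor of the tissue factor and factor VIIa complex, had 1.21, 1.80, 2.91, 0.788 and 3.28 RPKM in the AdCMV mice and 11.4, 9.54, 13.0, 15.8 and 7.93 RPKM in the AdVEGF mice. The lowest AdVEGF mouse exceeded the highest AdCMV mouse, and the log2 fold change was 2.60 ± 0.33 (SE, adjusted p = 1.62e-05), and 2.22 ± 0.24 (adjusted p = 3.02e-05) after scaling. Procr, the endothelial receptor that presents protein C for activation, had 1.29, 1.29, 1.95, 0.850 and 0.695 RPKM in the AdCMV mice and 2.26, 3.33, 2.86, 4.43 and 2.68 RPKM in the AdVEGF mice, from 6 to 54 reads. The groups did not overlap on either scale, with log2 fold changes of 1.33 ± 0.29 (SE, adjusted p = 0.00275) and, after scaling, 0.95 ± 0.24 (adjusted p = 0.0133).

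Thbd, thrombomodulin, which turns thrombin into an activator of protein C, had 0.595, 0.778, 2.53, 0.942 and 1.31 RPKM in the AdCMV mice and 2.16, 0.544, 2.74, 2.22 and 2.04 RPKM in the AdVEGF mice. The groups overlapped at both ends, from 15 to 74 reads per mouse, with a log2 fold change of 0.62 ± 0.42 (SE, adjusted p = 0.272), and 0.26 (adjusted p = 0.669) after scaling. Proc, the precursor of protein C, had 89.7 ± 7.13 RPKM and 120 ± 5.98 RPKM (SD, n = 5 each) with no overlap of the groups on the deposited scale, and a log2 fold change of 0.42 (adjusted p = 0.0770), or 0.017 (adjusted p = 0.957) after scaling. Its cofactor Pros1 had 13.3 ± 4.52 RPKM and 20.6 ± 4.20 RPKM, with a log2 fold change of 0.67 (adjusted p = 0.0477) and after scaling 0.27 (adjusted p = 0.191). Serpind1, heparin cofactor II, had 111 ± 18.2 RPKM and 111 ± 15.7 RPKM, with a log2 fold change of -0.0013 (adjusted p = 0.997), and -0.40 (adjusted p = 0.0725) after scaling.

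In the fibrinolysis group, Plat and Plau, the genes of the 2 plasminogen activators, were called higher. Plg, which encodes plasminogen itself, had 205, 180, 183, 165 and 245 RPKM in the AdCMV mice and 246, 238, 229, 279 and 250 RPKM in the AdVEGF mice, with a log2 fold change of 0.35 ± 0.18 (SE, adjusted p = 0.165), and -0.048 (adjusted p = 0.881) after scaling. Plat, the tissue-type activator, had 0.549, 0.589, 1.36, 0.506 and 0.483 RPKM in the AdCMV mice and 5.73, 5.30, 10.0, 11.9 and 4.61 RPKM in the AdVEGF mice. The lowest AdVEGF mouse exceeded the highest AdCMV mouse more than the AdCMV mice differed from each other, and the log2 fold change of 3.25 ± 0.32 (SE, adjusted p = 1.42e-06) was the largest of the 45 genes, with 2.88 ± 0.26 (adjusted p = 5.78e-06) after scaling. AdCMV values rested on 7 to 27 reads and AdVEGF values on 78 to 244 reads. Plau, the urokinase-type activator, had 2.67, 4.87, 5.01, 1.82 and 3.80 RPKM in the AdCMV mice and 7.49, 6.59, 8.59, 9.13 and 4.08 RPKM in the AdVEGF mice. AdVEGF replicate 5 lay among the AdCMV mice, and the log2 fold change of 1.00 ± 0.29 (SE, adjusted p = 0.0195) was just past the threshold and was 0.61 (adjusted p = 0.0580) after scaling. The inhibitors on the other side of this balance were Serpinf2, which encodes the plasmin inhibitor, and Cpb2, a carboxypeptidase that slows clot lysis. Serpinf2 had 124 ± 20.8 RPKM and 222 ± 15.7 RPKM (SD, n = 5 each) with no overlap on either scale, a log2 fold change of 0.86 (adjusted p = 0.00257) on the deposited scale and 0.46 (adjusted p = 0.0805) after scaling, and Cpb2 had 150 ± 32.8 RPKM and 173 ± 42.9 RPKM.

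**Figure D3:**
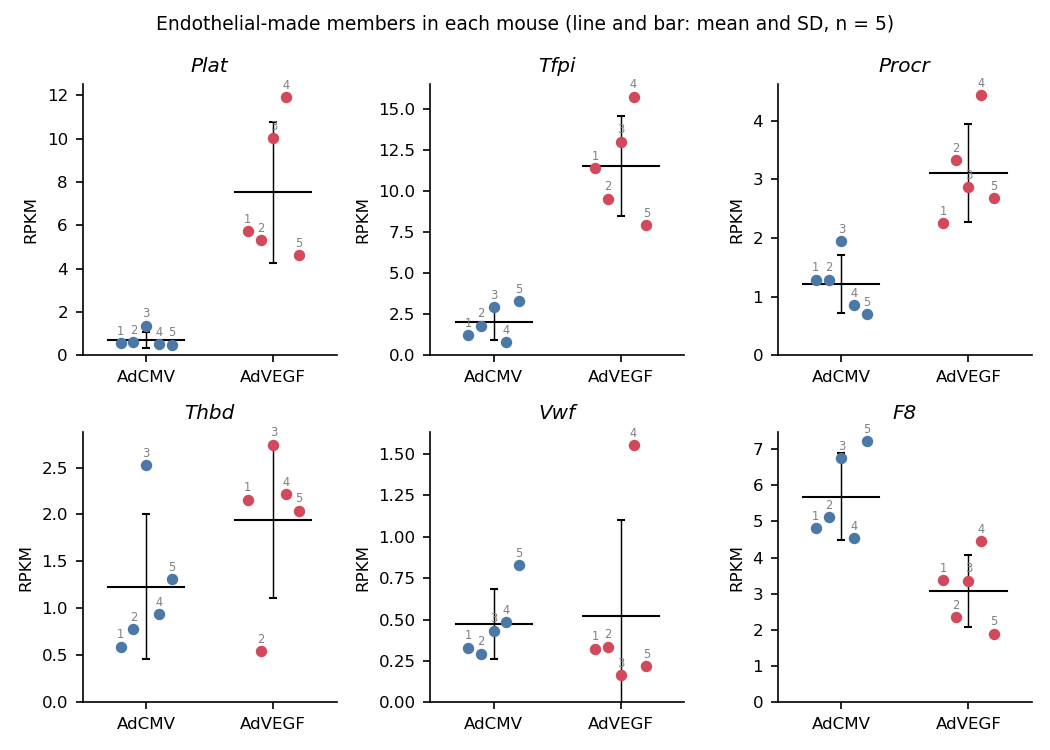
RPKM of the 6 endothelial-made genes in each mouse on separate linear axes, with numbers for the replicates and lines and bars for the mean and SD of 5 mice. Plat, Tfpi and Procr are higher in every AdVEGF mouse, F8 is lower in every one, and Thbd and Vwf overlap, with the Vwf mean of the AdVEGF group set by replicate 4 at 1.55 RPKM.

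The endothelial-made genes thus moved apart, with Plat, Tfpi and Procr called higher, F8 lower in each mouse and Thbd and Vwf not called. The 8 pan-endothelial markers (Pecam1, Cdh5, Tie1, Tek, Erg, Esam, Cldn5 and Egfl7) were all called higher on both scales, with a median log2 fold change of 2.68 and, after scaling, 2.30, and their summed RPKM was 28.3 to 53.9 in the AdCMV group and 221 to 308 in the AdVEGF group. In whole tissue, a change in the number of cells of a type and a change in RNA per cell cannot be told apart. Each endothelial-made gene was also expressed relative to these markers, which removes the scaling between libraries. The value is the log2(RPKM + 0.1) of the gene minus the mean of that value over the 8 markers. The groups were compared with 2-sided exact permutation tests adjusted over the 6 genes. This ratio does not separate cell number from RNA per cell, since the markers' own RNA per cell may have changed. Log2 fold changes of the 8 markers ran from 1.43 (Tek) to 3.19 (Cldn5) on the deposited scale. The smallest p that 5 against 5 mice allow is 0.00794.

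Relative to the markers, 4 of the 6 genes were lower in the AdVEGF group at an adjusted p below 0.05 in the exact permutation test. The markers had a median log2 fold change of 2.68, against 0.38 for all transcripts tested. A transcript with that typical change would therefore also be lower on this measure. The share of all transcripts lower on it was not computed, so the count cannot be read as a trait particular to these genes. F8 went from 0.79 ± 0.12 to -2.75 ± 0.40 (SD, n = 5 each), a difference of -3.55 with no overlap (exact permutation test, p = 0.00794, adjusted p = 0.0159). Vwf differed by -2.84 and Thbd by -2.03, also with no overlap and with the same exact p. Vwf passed the low-value threshold in the AdVEGF group alone and only through replicate 4, so its result rests on low values. Procr differed by -1.32 (exact permutation test, p = 0.0238, adjusted p = 0.0357) with overlapping groups. Thus Procr, whose RPKM rose, was lower relative to the mean of the markers. Its log2 fold change of 1.33 on the deposited scale was close to the 1.43 of Tek, the marker that rose least. Tfpi had -0.81 ± 0.43 in the AdCMV group and -0.87 ± 0.31 in the AdVEGF group (exact permutation test, p = 0.825), and Plat went from -2.14 ± 0.47 to -1.54 ± 0.50 (exact permutation test, p = 0.103, adjusted p = 0.124). With a pseudocount of 1 in place of 0.1 the Plat difference was -0.018, so its direction rests on the low AdCMV values. A p that misses the threshold does not show that Tfpi or Plat followed the markers.

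Set against the 8 sinusoidal endothelial markers (Stab1, Stab2, Lyve1, Clec4g, Oit3, Mrc1, Fcgr2b and Cd36), which had a median log2 fold change of 1.69 on the deposited scale, F8 differed by -2.60 (exact permutation test, adjusted p = 0.0159), Vwf by -1.89 and Thbd by -1.08 (both adjusted p = 0.0286), whereas Procr differed by -0.37 (adjusted p = 0.246). Tfpi was higher by 0.90 and Plat by 1.55 (both exact permutation test, adjusted p = 0.0159). F8 and Thbd were thus lower relative to both marker sets, and Procr, Tfpi and Plat depended on which endothelial markers were the reference. Both sets had risen, so a transcript with the typical change of 0.38 would be lower relative to each. Thbd changed by 0.62 on the deposited scale and was not called. That is above the typical change, so its lower ratios cannot be read as a drop of Thbd. F8 itself changed by -0.89, with lower RPKM in every AdVEGF mouse. Vwf was also lower relative to both marker sets, but it passed the low-value threshold only through AdVEGF replicate 4 with 1.55 RPKM. The other AdVEGF mice had 0.163 to 0.337 RPKM, not far above the pseudocount, so the size of the Vwf difference is uncertain. Markers of other cells that can express some of these genes moved as well. On the deposited scale, where 13.0% of all transcripts were called higher, 7 of the 8 stellate and mesenchymal markers were. Their sums were 74.7 to 122 RPKM and 182 to 360 RPKM. Of the 6 platelet and megakaryocyte markers, Pf4, Ppbp and Itga2b were tested and all 3 were called higher, while Gp1ba, Gp9 and Treml1 stayed below the 0.5 RPKM threshold, with sums over the 6 of 3.34 to 6.62 RPKM and 8.07 to 34.1 RPKM. The part of these cells in the values of Plat, Procr, Thbd and Vwf was not tested.

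**Figure D4:**
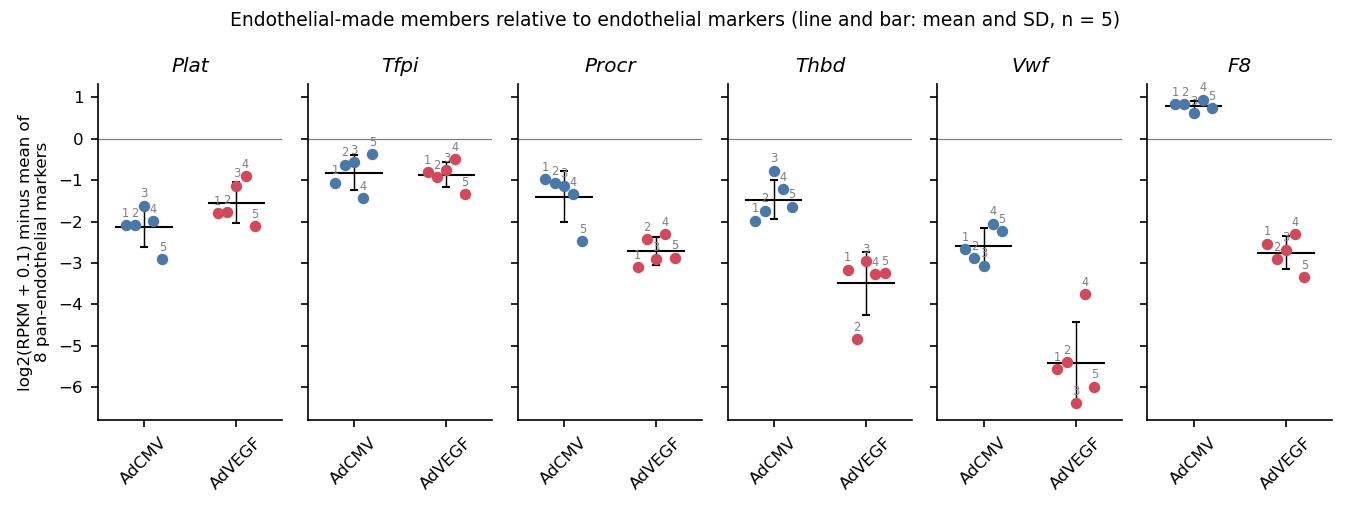
Log2(RPKM + 0.1) of each endothelial-made gene minus the mean over 8 pan-endothelial markers in each mouse, with lines and bars for the mean and SD of 5 mice per group. F8 drops from 0.79 to -2.75 and is the only gene above the marker level in the AdCMV group, Vwf and Thbd also separate, and the Tfpi values of the groups overlap.

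Other genes of the 2 systems were taken from fixed lists. Of 24 further complement genes, 21 averaged more than 0.5 RPKM in both groups. On each scale 4 of these were called higher and 0 lower. Of all transcripts tested, 13.0% were called higher and 1.54% lower on the deposited scale, and 7.62% and 3.21% after scaling. The median log2 fold change of the 21 genes was 0.58 on the deposited scale and 0.18 after scaling. Fcna, a ficolin that starts the lectin route, went from 13.2 ± 4.72 RPKM to 53.3 ± 5.78 RPKM (SD, n = 5 each), and Colec11, a collectin of the same route, from 14.6 ± 3.29 RPKM to 52.4 ± 14.0 RPKM. Their log2 fold changes were 2.06 and 1.82 (adjusted p = 3.46e-06 and 1.24e-05). Vsig4, the C3b receptor of Kupffer cells, and Cd93, a surface protein of endothelial and myeloid cells, were higher by 2.14 and 2.46. Cfd, which encodes factor D of the alternative route, had 2.65 ± 1.60 RPKM and 0.380 ± 0.412 RPKM, from 0 to 35 reads per mouse. It passed the threshold through the AdCMV group alone and is not counted.

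Of 29 further genes of coagulation and fibrinolysis, 25 averaged more than 0.5 RPKM in both groups. On the deposited scale 5 of these were called higher and 0 lower, beside 13.0% and 1.54% of all transcripts. After scaling 3 were higher and 1 lower, beside 7.62% and 3.21%. Their median log2 fold change was 0.29 on the deposited scale and -0.11 after scaling. The 3 on both scales were the thrombin receptor F2r (1.61, adjusted p = 9.02e-05), the urokinase receptor Plaur (1.55, adjusted p = 0.000316) and Anxa2, a cell-surface receptor for Plat and plasminogen (1.51, adjusted p = 0.00109). Plaur rested on 8 to 30 reads. F2rl3, a further thrombin receptor, had 0.10 ± 0.15 RPKM and 1.04 ± 0.225 RPKM, from 0 to 18 reads, and passed the threshold through the AdVEGF group alone, so it is not counted. Kng2 (1.01) and the protease inhibitor Serpina1e (1.28), which has near-identical copies, were called on the deposited scale only. Fgl2, a prothrombinase of macrophages and endothelial cells, was called after scaling only, at -1.16 (adjusted p = 0.00102).

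AdVEGF replicate 4 lay above all other AdVEGF mice in 22 of the 45 genes and below all of them in 11, and in 21 and 13 after scaling. Relative to the median of the other 4 mice, Vwf was highest at 5.71 times, followed by Fgg at 2.78 times, Plat at 2.16 times, C3 at 1.93 times and Fgb at 1.79 times. C6 was lowest at 0.329 times, followed by Klkb1 at 0.502, C8g at 0.519, Mbl2 at 0.543 and C8b at 0.587 times. The chains of C8 thus were all below the other mice in this liver and the 3 fibrinogen chains all above. The 10 acute phase markers, which include the serum amyloid A and haptoglobin genes, summed to 33570 RPKM in this mouse, against a lowest value of 5986 and a median of 8848 in its group and 6139 to 8718 RPKM in the AdCMV group. Whether that state bears on the members' values in this mouse was not tested. Leaving this mouse out left 6 of the 45 genes called higher, without Plau, and added F8 as called lower, beside 12.7% and 1.31% of all transcripts. After scaling, leaving it out left 3 higher (Plat, Tfpi and Masp1) and 2 lower (C2 and F8), beside 7.63% and 2.93%.

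**Figure D5:**
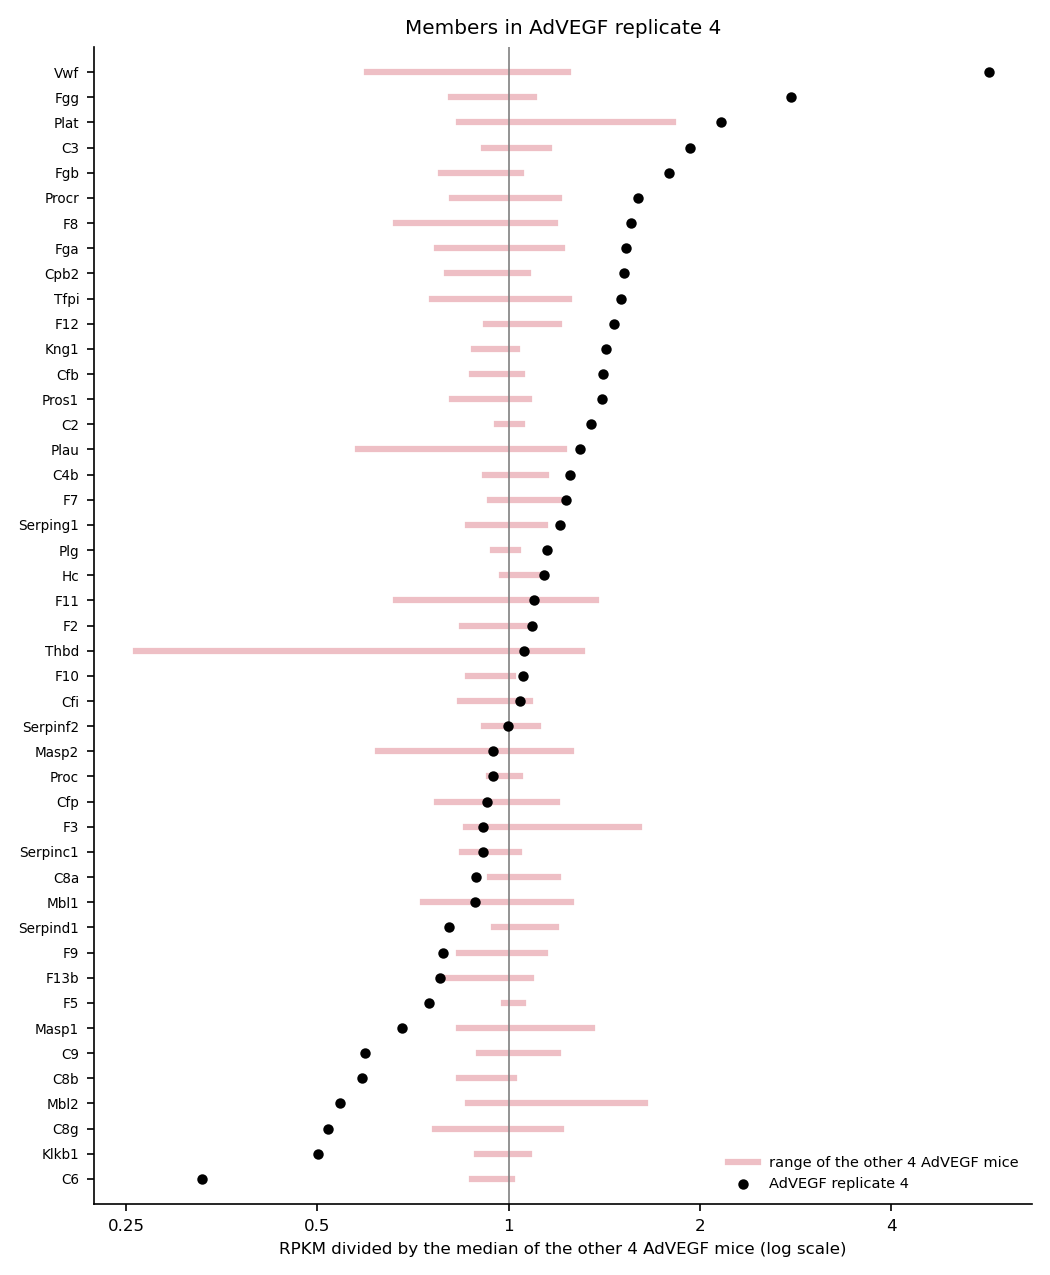
RPKM of each of the 45 genes in AdVEGF replicate 4 divided by the median of the other 4 AdVEGF mice (log axis), with bars for the range of those 4. Vwf, Fgg, Plat, C3 and Fgb stand highest, C6 and Klkb1 lowest, and 12 genes fall inside the range.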

How the data were processed

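RNA-Seq values of 10 mouse livers (5 AdVEGF, 5 AdCMV; groups and replicate numbers from the labels, 1 animal per library) were used. The authors deposited RPKM values for 24016 RefSeq transcripts, normalized to uniquely mapped tags. The processing notes name TopHat, HOMER and mm9, and handling of strand and multi-mapping reads was not given in the sources used here. The deposited fold change and FDR columns of the authors' own comparison were not used. Whole reads were recovered from the steps of the deposited RPKM (99.37% to 99.98% of values up to 30 reads within 0.05 of a whole number). Reads on transcripts exceeded the mapped tags. Some reads therefore counted for several transcripts, or reads outside the uniquely mapped tags were counted, and which of these applied was not tested.

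Differences were tested with limma 3.58.1 (R 4.3.3; lmFit, eBayes with trend) on log2(RPKM + 0.1) for transcripts averaging more than 0.5 RPKM in 1 or both groups, leaving out 5 transcripts with no symbol, with Benjamini-Hochberg adjustment over 13933 transcripts and a call where the adjusted p was below 0.05 and the change at least 1 in either direction on the log2 scale. Fold changes are on this scale and understate changes of low genes. Limits set by 3 reads cover counting error only. The test was tried on simulated data with known changes. Exact permutation tests were run in Python 3.11.15. Values per mouse were printed for genes called on either scale, for the most abundant gene of each role and for the 6 endothelial-made genes, and other genes of the lists are named where they were called. C4a was named after its values were seen. 1 gene of the lists is not reported here. Counts over further complement and coagulation genes take those past the threshold in both groups, a choice made after the values were seen. Alternatives were 3 other scalings (median-ratio size factors from geometric means, totals without the Mup genes, and a hepatocyte marker reference), pseudocounts of 1 and 0.01, 2 other filters, 1 row per symbol, treat, voom, a replicate block and leaving out each mouse. The genes, lists and tests were chosen with earlier results of these data known. Promoter sequences came from RefSeq (GRCm38.p6), and the table's own coordinates were not converted.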

Additional observations from a re-analysis of the deposited data

Results flagged for a closer look

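In 11 cases a mouse lay far from the other 4 of its group by Dixon's ratio, where chance would give about 1 in 20 groups, or 4.5 of the 90 groups examined. AdVEGF replicate 4 accounted for 8 of them. It was high in Fgg with 3138 RPKM against 913 to 1237 in the other 4 AdVEGF mice, in Fgb with 2587 RPKM against 1132 to 1512, in C3 with 1354 RPKM against 643 to 812, in Kng1 with 787 RPKM against 489 to 571, in C2 with 34.1 RPKM against 24.2 to 26.5, and in Vwf with 1.55 RPKM against 0.163 to 0.337. The same mouse was low in C6 with 24.2 RPKM against 64.4 to 74.3, and in F5 with 41.9 RPKM against 55.0 to 58.9. In the AdCMV group, replicate 5 was high in Fga with 560 RPKM against 186 to 285 and in Cfp with 18.8 RPKM against 8.97 to 10.7, and replicate 3 was high in Plat with 1.36 RPKM against 0.483 to 0.589. After median-ratio scaling Dixon's ratio stayed past its critical value in 4 of the 11 cases, which were Fgb, Fgg, Vwf and Kng1 in AdVEGF replicate 4, and in 0 of the 3 AdCMV cases. These 11 cases are not independent, since 8 come from 1 library.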

How the results depend on the processing

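The calls changed most with the scaling between libraries. In place of 7 genes higher and 0 lower, median-ratio scaling gave 2 higher and 2 lower, beside 7.62% and 3.21% of all transcripts. Library totals without the Mup genes gave 2 and 2, beside 7.62% and 3.17%. The hepatocyte reference, which divides each library by the mean level of the 8 hepatocyte markers, gave 2 and 6 (Mbl2, C2, C4b, C8g, C9 and F8). Beside these were 5.41% of all transcripts higher and 7.15% lower, with a median log2 fold change of all transcripts of -0.33. The treat test against a log2 fold change of 1 left 2 higher, beside 3.61% of all transcripts. Plat and Tfpi were called higher under each of the 22 alternatives. A pseudocount of 1 left 5 higher, beside 6.85% of all transcripts. A pseudocount of 0.01, no filter, a filter at 1 RPKM, 1 row per symbol and voom on the recovered reads each left 7. The shares of all transcripts called higher under these were 13.2%, 10.4%, 12.5%, 13% and 14.3%. Leaving out 1 mouse gave 6 to 7 higher and 0 to 1 lower, beside 10.2% to 17% of all transcripts higher and 1.27% to 1.61% lower. The 1 lower was F8 at -1.04 without AdVEGF replicate 4, and Plau was the gene lost in each of the 5 cases with 6. Median-ratio scaling without AdVEGF replicate 4, chosen after seeing the data, gave 3 higher and 2 lower, beside 7.63% and 2.93% of all transcripts. No gene that was called changed sign under any alternative. Of genes not called on the deposited scale, the log2 fold change changed sign after median-ratio scaling in C6 -0.36, F7 -0.35, F9 -0.31, F10 -0.049, F11 -0.28, Klkb1 -0.21, F3 -0.10, Plg -0.048 and Cpb2 -0.20, with totals without the Mup genes in C6 -0.37, F7 -0.36, F9 -0.32, F10 -0.0602, F11 -0.29, Klkb1 -0.22, F3 -0.11, Plg -0.0596 and Cpb2 -0.21, with the hepatocyte reference in C3 -0.24, C6 -0.68, Cfi -0.083, Fga -0.23, Fgb -0.014, F2 -0.24, F7 -0.66, F9 -0.63, F10 -0.37, F5 -0.22, F11 -0.59, F12 -0.24, Klkb1 -0.52, F3 -0.39, Proc -0.30, Pros1 -0.041, Thbd -0.042, Serpinc1 -0.16, Plg -0.37 and Cpb2 -0.52, and with median-ratio scaling without AdVEGF replicate 4 in C3 -0.099, C6 -0.036, Fga -0.023, F7 -0.39, F9 -0.23, F10 -0.0605, F11 -0.30, F12 -0.0082, F3 -0.048, Plg -0.078 and Cpb2 -0.32. Across the mice left out, the values that crossed 0 were Mbl1 from -0.19 to 0.0046, Cfb from -0.11 to 0.072, Hc from -0.074 to 0.042, C6 from -0.065 to 0.35, Serping1 from -0.077 to 0.054, F13b from -0.11 to 0.023, Vwf from -0.30 to 0.031 and Serpind1 from -0.0705 to 0.069.

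Relative to the pan-endothelial markers, 4 genes passed under both other pseudocounts and 4 to 5 with 1 mouse left out, and 5 passed with sinusoidal markers. The Tfpi difference was 0.90 with sinusoidal markers and ran from -0.21 to 0.068 with 1 mouse left out, and the Plat difference was -0.018 with a pseudocount of 1. The cause of these changes was not tested. Same-numbered mice correlated at 0.008 to 0.291 in their deviations from the group means, and 3 of 5 AdCMV mice correlated best with the AdVEGF mouse of their own number, and since not every correlation was over 0.1 the numbers were not taken as pairs. With the replicate number as a block, 7 genes were called higher and 0 lower, beside 13.9% and 1.84% of all transcripts. The sign-flip test over pairs passed for 0 of the 6 endothelial-made genes, since its smallest p is 0.0625. Depth limits the genes with few reads, which were F3, Procr, Plat, Tfpi, Thbd and Vwf.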

Other observations

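AdVEGF replicate 4 had the highest RPKM of all 10 mice in 9 of the 10 acute phase markers. Saa1, a serum amyloid A gene, had 4298 RPKM in this mouse against 30.3 to 146 RPKM in the other 4 AdVEGF mice and 212 to 389 RPKM in the AdCMV mice. Lcn2, which encodes an iron-withholding protein, had 1599 RPKM against 9.06 to 36.8 RPKM, and haptoglobin (Hp) had 7756 RPKM against 1733 to 2667 RPKM. The exception was Saa3, which had 29.3 RPKM in this mouse and 5.66 to 15.1 RPKM in the other 4, against 197 to 934 RPKM in the AdCMV mice, a log2 difference of -5.10 between the groups (adjusted p = 3.34e-07 by limma). Saa2 had 3402 RPKM in this mouse, 10.95 to 67.1 RPKM in the other 4 and 104.1 to 258.4 RPKM in the AdCMV mice. In those other 4 mice all 3 serum amyloid A genes thus lay below every AdCMV mouse. All 10 markers were highest of the AdVEGF group in replicate 4, but Saa3 stayed below the AdCMV mice there.

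In the AdCMV group, replicate 5 lay above the other 4 mice in 24 of the 45 genes and replicate 4 below the other 4 in 21 on the deposited scale. After median-ratio scaling these counts were 10 and 2, and replicate 3 lay below the other 4 mice in 34 genes.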
